A study of Mus musculus with 6 samples.

Results

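The plasminogen activators and the proteins that hold them in check were followed in mouse ovarian cultures, labelled granulosa cells, exposed to polystyrene particles. The 5 genes were chosen by name, as the rows of the deposited gene table for Plau, Plat, Plaur, Serpine2 and Serpinb2, and all 5 were found among 30862 gene rows. All 5 also passed the filter on low counts and were tested with 17186 genes in all. The cells came from ovaries of ICR mice that were 21 days old. They adhered for 12 h and were then kept for 24 h with 100 nm sonicated polystyrene particles (PS-MP) at 750 µg/mL or without particles (control, 0 µg/mL), with 3 libraries of messenger RNA per group, of 56967176 to 70240738 estimated counts each. The labels name no genotype beyond "WT" for the controls and call the libraries of each group biological replicates 1 to 3. Which animals or cultures each number stands for is not stated there, and the p-values measure the spread among these libraries.

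Plasminogen is an inactive precursor that is cut to plasmin, a protease with a broad range of targets that dissolves fibrin and opens the pericellular matrix. Urokinase (Plau) and tissue-type activator (Plat) make this cut, the urokinase receptor (Plaur) concentrates urokinase at the cell surface, and serpins inactivate both enzymes by trapping them in a covalent complex. In the ovary the activators and their inhibitors are known for gonadotropin-regulated expression around ovulation, when the follicle wall is broken down.

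Before the results, the labelled cell type was checked against marker genes. Foxl2 and Amh, which mark granulosa cells, averaged 0.11 and 0.153 FPKM (a level corrected for transcript length and library depth) over the 6 libraries, and 4 of the 7 granulosa markers in the table stayed under 1 FPKM in every library. Gja1 and Fst led the granulosa list, at 10.65 and 5.33 FPKM. Summed granulosa markers ran from 16.3 to 19.1 FPKM in control and from 16.6 to 19.0 FPKM in PS-MP libraries. Smooth muscle and pericyte markers, led by Acta2 and Tagln (1829 and 990.5 FPKM), summed to 2753 to 3530 FPKM in control and 2493 to 3714 FPKM in PS-MP libraries. Fibroblast markers, led by Col1a1 and Col1a2 (654 and 246 FPKM), summed to 854 to 1505 and 869.9 to 1288 FPKM. Leukocyte markers, led by Cd14 and Cd68 (4.64 and 2.41 FPKM), summed to 7.35 to 10.8 and 6.85 to 9.42 FPKM. Ptprc, of the same list, averaged 0.000957 FPKM. Endothelial markers summed to 0.219 to 0.407 and 0.218 to 0.401 FPKM, oocyte markers to 0.204 to 0.303 and 0.175 to 0.432 FPKM, and theca markers to 2.35 to 4.47 and 3.02 to 5.89 FPKM, nearly all of it Star. Surface epithelium markers, led by Krt18 and Wt1 (5.715 and 4.64 FPKM), summed to 6.42 to 26.95 and 5.67 to 30.2 FPKM. Foxl2 and Amh were thus near 0, Amhr2 and Hsd17b1 averaged 0.0229 and 0.169 FPKM, and Inha averaged 1.02 FPKM. Gja1 and Fst were higher, yet far under Acta2, Tagln and Col1a1. Of the 10 granulosa markers listed, 7 were in the table. The markers thus do not bear out the granulosa label, and the cells are called by the label of their culture. In such bulk libraries a smaller share of cells of a type and less RNA per cell cannot be told apart.

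The promoters of the receptor and of both serpins are shown because these 3 genes, found in the sequence table used, varied in different ways across the libraries. Each run is the 250 bases before the RefSeq start (table build GRCm38.p6), found once and without mismatch on the same chromosome of GRCm39. That start lay 33 bases downstream of the canonical start in GENCODE M39 for Plaur, 31 for Serpine2 and 0 for the printed Serpinb2 window. The last bases of the Plaur and Serpine2 runs thus lie past the canonical start, and distances below are from the RefSeq start. Capitals mark the motifs searched on both strands. These were the AP-1 motif TGANTCA, the cAMP response element TGACGTCA and its variant TGACATCA, the GC box with the letters GGGCGG, the TATA box TATAAA and the SMAD motif CAGACA.
Plaur: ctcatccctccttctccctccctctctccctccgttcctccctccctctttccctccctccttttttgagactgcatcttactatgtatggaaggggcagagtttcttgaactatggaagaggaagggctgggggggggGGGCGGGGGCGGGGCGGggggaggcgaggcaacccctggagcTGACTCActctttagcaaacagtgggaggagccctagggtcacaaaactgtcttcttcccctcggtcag
Serpinb2: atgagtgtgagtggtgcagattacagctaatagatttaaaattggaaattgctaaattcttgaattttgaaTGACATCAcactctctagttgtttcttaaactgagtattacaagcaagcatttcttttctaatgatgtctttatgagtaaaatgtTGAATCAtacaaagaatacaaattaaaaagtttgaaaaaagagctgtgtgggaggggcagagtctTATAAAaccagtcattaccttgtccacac
Serpine2: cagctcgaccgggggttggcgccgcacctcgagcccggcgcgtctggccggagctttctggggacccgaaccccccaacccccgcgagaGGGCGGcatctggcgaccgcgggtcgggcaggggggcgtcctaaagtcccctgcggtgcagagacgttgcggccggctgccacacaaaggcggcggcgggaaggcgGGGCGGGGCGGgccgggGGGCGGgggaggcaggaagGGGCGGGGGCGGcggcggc

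The Plaur window (chr7:24161658-24161907, plus strand) held 1 AP-1 motif that began 69 bases before the start, and 3 GC boxes, the last 2 of which share a letter. The Serpinb2 window (chr1:107438903-107439152, plus strand) held 1 AP-1 motif 94 bases before the start, 1 variant cAMP motif and a TATA box that began 29 bases before the start. The table lists another start for Serpinb2, whose window (chr1:107438990-107439239, not printed) lay downstream and held the same AP-1 motif and TATA box, both farther from that start (positions -181 and -116), and not the variant cAMP motif. The Serpine2 window (chr1:79836383-79836632, minus strand) held 6 GC boxes, some sharing letters, and none of the other 5 motifs. Its GC content was 78.8%, against 59.6% for Plaur, 32.4% for Serpinb2 and a median of 52.4% over 32851 promoter windows of the same length. Of those windows 6.75% held the AP-1 motif, 1.55% the cAMP motif, 2.93% its variant, 32.7% a GC box, 12.4% a TATA box and 17.1% the SMAD motif. A match describes the letters only and is no site of binding.

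The activators came first. Urokinase, Plau (ENSMUSG00000021822, chromosome 14, 20886728 to 20893453, GRCm39, plus strand), was the abundant activator. It stood at 160.2, 193 and 214 FPKM in control 1, 2 and 3 and at 169.5, 210.1 and 226 FPKM in PS-MP 1, 2 and 3. The groups overlapped, and in both the library numbered 1 was lowest and the library numbered 3 highest. Plau ranked between 173 and 244 among 30862 gene rows by FPKM. Tissue-type activator, Plat (ENSMUSG00000031538, chromosome 8, 23247743 to 23272860, plus strand), was lower, at 14.45, 13.2 and 12.15 FPKM in control and 16.2, 15.2 and 15.0 FPKM in PS-MP libraries. Every PS-MP library lay above every control library, and in both groups the library numbered 1 was highest and the library numbered 3 lowest. Per length, Plau exceeded Plat by 10.4 to 17.6 times, depending on the library.

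The receptor, Plaur (ENSMUSG00000046223, chromosome 7, 24161909 to 24175393, plus strand), stood at 65.2, 48.2 and 40.1 FPKM in control and at 62.7, 42.6 and 39.04 FPKM in PS-MP libraries. The groups overlapped, and here number 1 was the highest in both. The FPKM of Plau over that of Plaur was 2.46 and 2.70 in control 1 and PS-MP 1, 4.002 and 4.93 in the libraries numbered 2, and 5.33 and 5.80 in those numbered 3.

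The serpins differed widely in level. Serpinb2, plasminogen activator inhibitor type 2, a serpin that is largely kept inside cells (ENSMUSG00000062345, chromosome 1, 107439153 to 107460265, plus strand), was at 225, 234 and 322 FPKM in control and at 255, 261 and 273 FPKM in PS-MP libraries. Control 3 stood highest and the PS-MP libraries fell between control 2 and control 3, so the groups overlapped. Serpine2, protease nexin-1, a secreted inhibitor of thrombin, urokinase and tissue-type activator (ENSMUSG00000026249, chromosome 1, 79771914 to 79836413, minus strand), was at 3.47, 6.68 and 10.9 FPKM in control and 4.13, 6.75 and 11.1 FPKM in PS-MP libraries. The 2 groups overlapped throughout, and same-numbered libraries lay close together. By mean FPKM the order was Serpinb2 (262), Plau (195), Plaur (49.6), Plat (14.4) and Serpine2 (7.18). Serpinb2 exceeded Plau in 6 of 6 libraries, by 1.21 to 1.51 times, yet the lowest Serpinb2 library (225) lay under the highest Plau library (226). Each of the other neighbours was separated in every library, Plat and Serpine2 by the narrowest gap (12.15 against 11.1 FPKM).

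**Figure D1:**
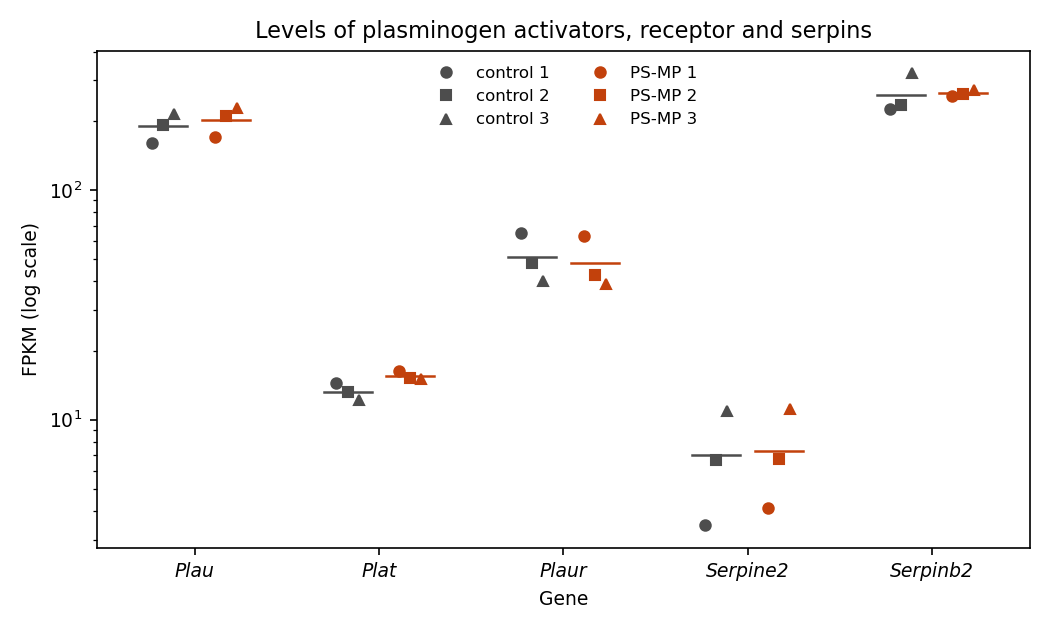
FPKM of the 5 genes in each library, on a log axis; grey is control, orange PS-MP, the symbol gives the replicate number and the line the mean of 3 libraries. Serpinb2 and Plau lay between 160.2 and 322 FPKM, Serpine2 spread from 3.47 to 11.1 FPKM, and Plat is the member whose groups do not overlap.

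Parts of these genes share bases with others in GENCODE M39. Counted on either strand, Gm63115 covers 15.1% of Plau exon bases, and Gm70772 together with Serpinb10 covers 20.4% of those of Serpinb2. Serpinb10 did not exceed 0.191 FPKM in any library. Whether counting used strand is not stated in the labels, and reads of the overlapping genes in shared bases cannot be told apart from those of Plau and Serpinb2. No exon base of Plat, Plaur or Serpine2 lies in another gene.

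With PS-MP none of the 5 genes passed the test. With edgeR's quasi-likelihood test and Benjamini-Hochberg adjustment 0 of 17186 genes (0%) reached both an adjusted p under 0.05 and a 1.5-fold difference, and 226 genes (1.32%) had an unadjusted p under 0.05. DESeq2 called 1 gene, no member. With the replicate number as a block edgeR called 1 gene (0.00582%), no member, and 4.94% of genes had an unadjusted p under 0.05, Plat among them. The unadjusted p of Plat in that blocked edgeR fit was 0.00535 and its adjusted p 0.884. The mean of Plat was 13.3 ± 1.15 FPKM without particles and 15.5 ± 0.672 FPKM with them (SD, n = 3 per group, here and below). Its log2 fold change was 0.20 ± 0.08 (SE; 95% interval 0.00 to 0.40, unadjusted p = 0.048, adjusted p = 1, edgeR), and Plat was the member with an unadjusted p under 0.05. On the scale of log2 CPM (counts scaled to library size, with TMM) PS-MP exceeded the same-numbered control by 0.14, 0.17 and 0.30, and the groups did not overlap on this scale either. Of all genes tested 3.53% lay higher without overlap and 2.68% lower without overlap, and 1 of the 5 genes stands beside that background as a single gene. FPKM summed over all genes was slightly higher in every PS-MP library (284964 to 290681) than in any control library (274177 to 283405), which adds a little to FPKM differences and not to the log2 fold changes.

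Plau averaged 189 ± 27.1 and 202 ± 29.2 FPKM in control and PS-MP libraries, with a log2 fold change of 0.08 ± 0.14 (SE; 95% interval -0.26 to 0.41, adjusted p = 1, edgeR). Within pairs of the same number it was higher with PS-MP in 3 of 3, by 0.05, 0.09 and 0.08 (log2 CPM). For Plaur the averages were 51.2 ± 12.8 and 48.1 ± 12.8 FPKM and the log2 fold change was -0.11 ± 0.23 (interval -0.64 to 0.42, adjusted p = 1, edgeR), and it was lower in 3 of 3 pairs, by differences of -0.09, -0.21 and -0.04. Over all genes tested 14.6% were higher in all 3 pairs and 13.3% lower in all 3. In both genes the within-pair differences were smaller than the span between replicate numbers given further on. Without control 1 or without PS-MP 3 the fits gave Plau -0.03 and -0.01 and Plaur 0.10 and 0.02, and in those fits 1 number is present in 1 group alone.

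Serpine2 averaged 7.02 ± 3.73 and 7.34 ± 3.54 FPKM, with a log2 fold change of 0.05 ± 0.46 (interval -1.04 to 1.14, adjusted p = 1, edgeR) in the fit without pairs, which reaches beyond 1.5-fold in either direction. Pairs differed by 0.22, -0.02 and 0.03, and with the replicate block the log2 fold change was 0.08 ± 0.06 (interval -0.07 to 0.22, adjusted p = 0.901, edgeR). Without control 1 its log2 fold change was -0.27, without PS-MP 3 -0.38. Serpinb2 averaged 260.3 ± 53.5 and 263 ± 8.95 FPKM and had a log2 fold change of -0.00 ± 0.13 (interval -0.31 to 0.31, adjusted p = 1, edgeR). Its pairs went both ways, 0.15 and 0.13 higher in pairs 1 and 2 and -0.24 in pair 3. Without control 3 the log2 fold change of Serpinb2 was 0.16 (unadjusted p = 0.0713, edgeR), without control 1 -0.10 and without control 2 -0.06. In each of these fits 1 number is present in 1 group alone. Without the block the interval lay within 1.5-fold in both directions for 3 of the 5 genes (Plau, Plat and Serpinb2). With it the intervals of all 5 did, that of Plaur at -0.23 to 0.01 and that of Plat at 0.08 to 0.33.

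Around the 5 genes, the plasminogen-binding proteins Anxa2, S100a10 and Eno1 were abundant and the plasminogen receptor Plgrkt was low, whereas plasminogen itself was listed at 0. A list of 34 further genes of the system was used. Of these, 30 were in the table and 22 were tested, while Serpina5, Vtn, Cpb2 and Fga were not analysed here. With PS-MP 0 were called higher and 0 lower. The signs were 11 positive and 11 negative, and the median log2 fold change was -0.00, against 0.00 over all genes tested. Plg, plasminogen itself, was listed at 0 in 6 of 6 libraries. Its receptor Plgrkt had means of 3.92 ± 0.786 and 4.48 ± 0.170 FPKM without and with particles (log2 fold change 0.17 ± 0.15, SE).

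Annexin A2 (Anxa2) and its light chain S100a10 form a surface complex that binds plasminogen and tissue-type activator. Anxa2 stood at 263, 282 and 273 FPKM in control and 316, 320.4 and 315 FPKM in PS-MP libraries, and S100a10 at 90.1, 87.8 and 84.15 FPKM and at 106, 103 and 96.5 FPKM. Neither overlapped between groups. Their log2 fold changes were 0.20 ± 0.06 and 0.20 ± 0.07 (SE, unadjusted p = 0.0164 and 0.0226, adjusted p = 1 for each, edgeR), close to the 0.20 of Plat. They are the 2 of 22 list genes whose groups did not overlap, both higher with PS-MP. Over all genes tested 3.53% were higher and 2.68% lower without overlap. S100a10 was named after its values were seen. Among the other abundant genes of the list, F2r, the thrombin receptor PAR1, was at 382 ± 18.6 and 368 ± 14.2 FPKM (log2 fold change -0.07 ± 0.07). Eno1, an enolase that also binds plasminogen at the cell surface, was at 279 ± 26.0 and 293 ± 31.4 FPKM (0.05 ± 0.10). Thbd, thrombomodulin, was at 189.7 ± 35.7 and 187 ± 36.55 FPKM (-0.04 ± 0.18), and Lrp1, the endocytic receptor that clears activator-serpin complexes, at 119 ± 6.05 and 121 ± 22.8 FPKM (0.00 ± 0.14).

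**Figure D2:**
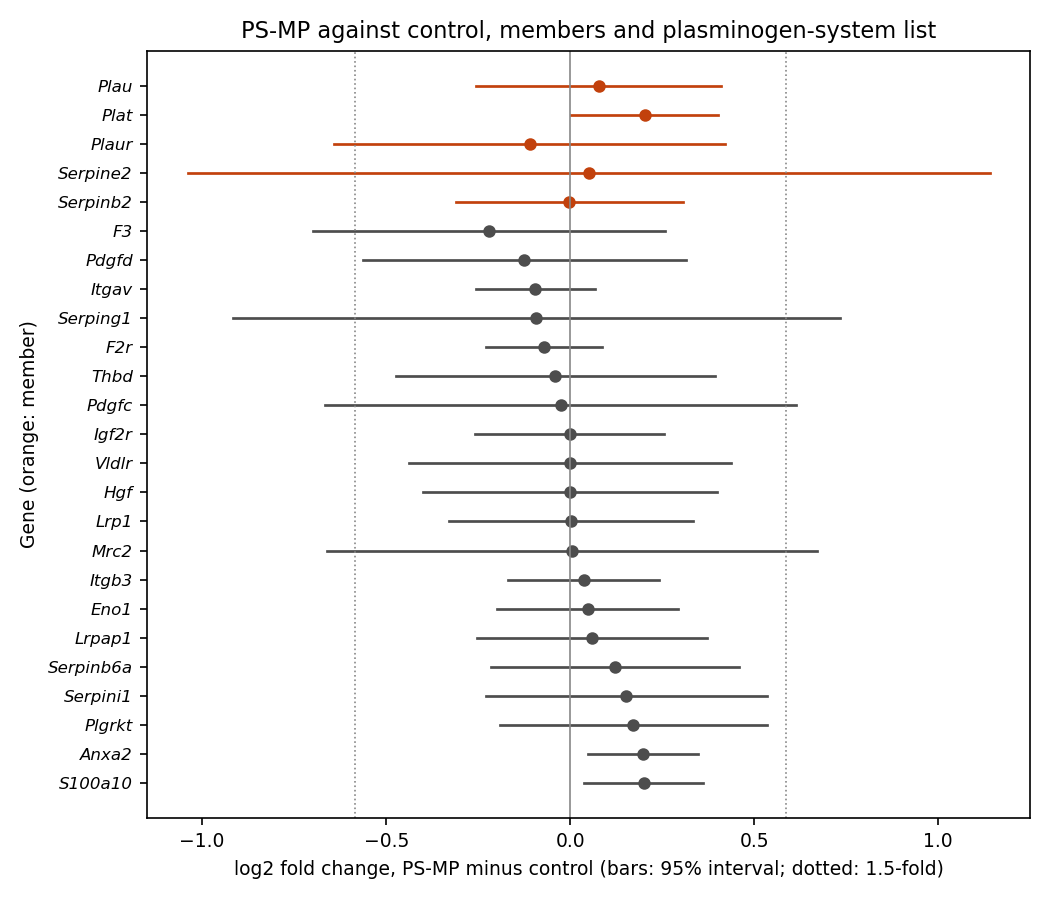
Log2 fold change of PS-MP against control with its 95% interval, for the 5 genes (orange) and the tested genes of the plasminogen-system list with a mean of at least 1 FPKM (grey); dotted lines mark 1.5-fold. The intervals of Plat, Anxa2 and S100a10 lie just above 0, and that of Serpine2 runs from -1.04 to 1.14.

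Serpine2, Plau, Plaur and Serpinb2 varied more between replicate numbers than with PS-MP, and Plat did not. The medians over all genes tested, given below, were also higher for the number than for treatment. The number has more levels than treatment, which favours its share. Of the sum of squares of log2 CPM, 99.0% went with the number in Serpine2, 95.4% in Plau, 95.1% in Plaur and 68.2% in Serpinb2, against a median of 61.2% over all genes tested and of 69.3% over genes above 10 CPM, which lies just above Serpinb2. Treatment held 0.392%, 4.37%, 3.45% and 0.193% of it in these genes. Plat had 32.7% for the number and 60.2% for treatment, where the median gene had 7.40% for treatment. Anxa2 (86.2%) and S100a10 (78.2%) also had most of theirs with treatment. In Plat, Anxa2 and S100a10 a high treatment share largely restates that the groups did not overlap, and it is no separate result.

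**Figure D3:**
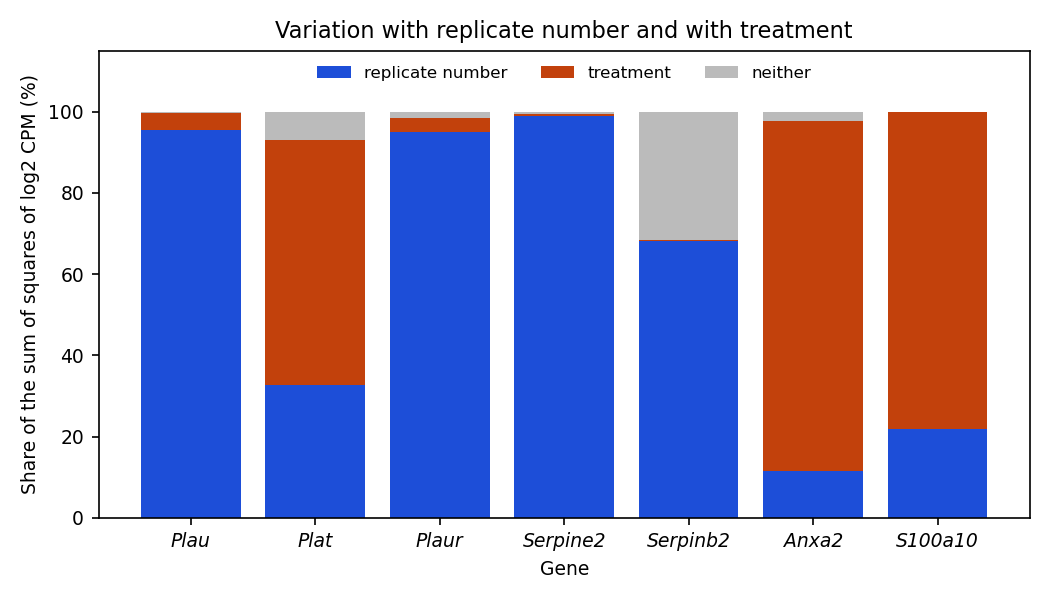
Share of the sum of squares of log2 CPM over 6 libraries that went with replicate number, with treatment and with neither, per gene. Serpine2, Plau and Plaur are at 95.1% or more for the number. Plat, Anxa2 and S100a10, whose groups do not overlap, have 60.2% or more for treatment.

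A test of the replicate number, added after the values were seen, gave the size of these differences. The test used edgeR with treatment as a covariate and found 1261 of 17186 genes (7.34%) different between numbers by the same 2 thresholds, and 14.9% by the adjusted p alone. At an unadjusted p under 0.05 there were 29.2%. Serpine2 was called, with a span of 1.54 (log2) between its lowest and highest number (adjusted p = 0.000229, edgeR). So was Plaur, with a span of 0.69 (adjusted p = 0.00136, edgeR). Plau had a span of 0.42, which is under 1.5-fold, with an adjusted p of 0.00424. Serpinb2 (span 0.31, adjusted p = 0.111) and Plat (span 0.18, adjusted p = 0.203) did not pass in edgeR. The Serpinb2 span depended on single libraries, at 0.12 without control 3 and 0.49 without PS-MP 3 (adjusted p = 0.371 and 0.00232, edgeR), and DESeq2 gave an adjusted p of 0.00387 with all 6, each span being under 1.5-fold. The Plat span was 0.11 without control 3 and 0.26 without PS-MP 3 (adjusted p = 0.418 and 0.0941, edgeR). Of the 22 tested list genes, 4 were called between numbers, among them the collagen receptor Mrc2 (0.90), the tissue factor gene F3 (0.62), Serping1 (1.03) and Pdgfc (0.81), which were named after their values were seen.

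The directions were opposite within the urokinase pair. Number 1 was lowest and number 3 highest in Plau and Serpine2 without overlap between numbers, an order that 10% of all genes tested had. Plaur was highest in number 1 and lowest in number 3, with the order that 8.34% of genes had. The number is that of the biological replicate, and replicates have no order of their own. Markers moved with it too. Surface epithelium markers summed to 26.95 and 30.2 FPKM in control 1 and PS-MP 1, 11.3 and 11.2 FPKM in the libraries numbered 2, and 6.42 and 5.67 FPKM in those numbered 3, and 6 of their 8 tested genes were called between numbers. Fibroblast markers summed to 1505 and 1288, 1085 and 1041, and 854 and 869.9 FPKM in the same order, smooth muscle and pericyte markers to 3530 and 3714, 3372 and 3299, and 2753 and 2493 FPKM. Of 9 surface epithelium markers 6 were higher in both libraries numbered 1 than in both numbered 3, 0 were lower and 3 overlapped. The share of all genes that part in this way was not computed. This count and those that follow are therefore description only. Members of the fibroblast list and of the smooth muscle and pericyte list went both ways. Of 8 fibroblast markers 6 were higher in both libraries numbered 1 than in both numbered 3, among them Col1a1 and Col1a2, and 2 were lower, Dcn (6.72 and 8.68 against 12.4 and 11.5 FPKM) and Thy1 (78.85 and 80.9 against 105.8 and 100.7 FPKM). Of 10 smooth muscle and pericyte markers 6 were higher, led by Acta2 and Tagln, and 3 lower, among them Notch3 (1.35 and 1.37 against 3.79 and 4.03 FPKM). Leukocyte markers summed to 7.56 and 6.90, 7.35 and 6.85, and 10.8 and 9.42 FPKM. Their part in the differences of Plau, Plaur and Serpine2 between numbers was not tested.

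**Figure D4:**
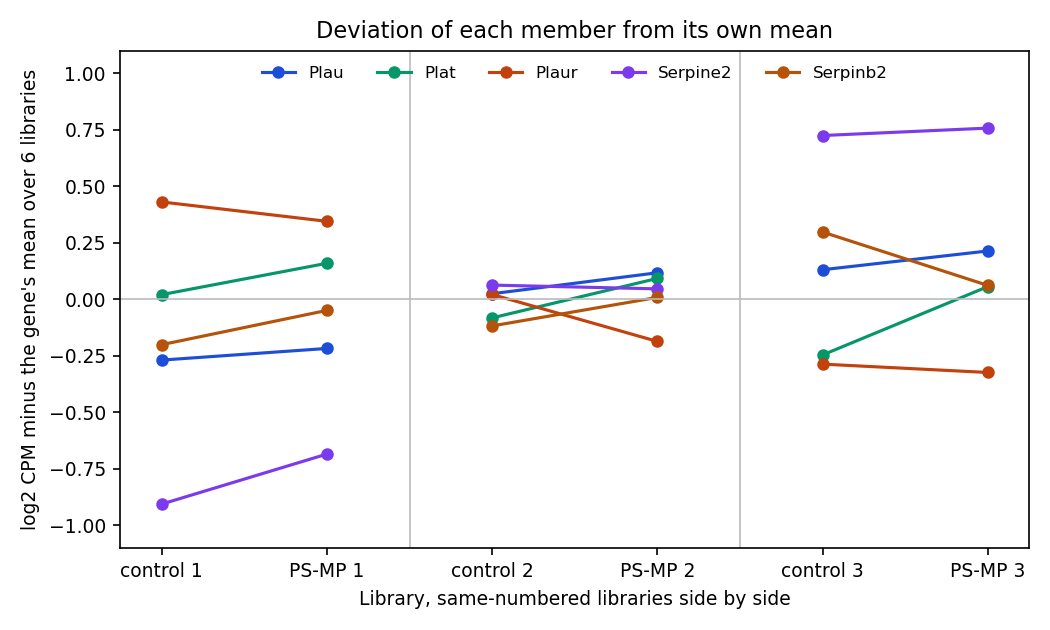
Log2 CPM of each of the 5 genes minus its own mean over the 6 libraries, with same-numbered control and PS-MP libraries joined by a line. Serpine2 and Plau lie lowest in number 1 and highest in number 3, Plaur the reverse, and the line of Plat slopes up in all 3 pairs.

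The genes with the most similar profiles were found by the root mean square difference of log2 CPM, each centred on its own mean over 6 libraries, among 10546 genes. Nearest to Plau were Arl3 (0.02), Gng10 (0.03) and Ccndbp1 (0.03), against a root mean square of 0.18 for Plau itself. Nearest to Plat (own value 0.13) were Rabif (0.03), Ints10 (0.04) and Snrnp40 (0.04). Plaur (0.30) was nearest to Phgdh (0.05), Cdc42ep3 (0.05) and Prkar2a (0.06). Serpine2 (0.63) was nearest to Shc4 (0.05), C1s1 (0.07) and Ctsh (0.07), which also ran from low in number 1 to high in number 3. Serpinb2 (0.16) was nearest to Lamp2 (0.04), Nbr1 (0.04) and Pla2g4a (0.04), all highest in control 3. Among the 5 genes the closest pair was Plau and Serpinb2 (0.14) and the most distant Plaur and Serpine2 (0.92). With 6 libraries and many genes, small differences of this kind arise readily, and they are given as a description.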

How the data were processed

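RNA of mouse cultures labelled granulosa cells was sequenced in 6 libraries. Per the submitters' processing notes, cutadapt 1.9, FastQC, HISAT2 2.2.1, StringTie 2.1.6 and GRCm39 were used; no annotation release is named there. Each gene row of the deposited table carries an FPKM value for every library (per the file headers) and a count. The count columns, as deposited, were taken as estimated counts, because the authors' way of making them is not stated and they pile up at 4 (6687 values, against 3161 of 3 and 2040 of 5); all are whole, so rounding altered none. The control libraries and PS-MP libraries held 56967176 to 70240738 estimated counts, and none of the library pairs was identical (0 pairs). Another 12 per-library columns (6 libraries) have names that differ from those matched and were not used, and the names by themselves leave the choice between the 2 sets uncertain.

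Genes were tested in R 4.3.3 with edgeR 4.0.16 (TMM, filterByExpr, quasi-likelihood, two-sided, treatment only, all 6 libraries), adjusted over 17186 genes. Thresholds (adjusted p under 0.05, at least 1.5-fold) follow the series' design text, whose own comparison used DESeq2. The test was first tried on simulated data with known changes. Members and lists were chosen with earlier results of these data known. Named were all 5 genes, the most abundant tested genes of the pathway list with Plg and Plgrkt, the 3 nearest profiles per gene, and leading cell type markers; 1 gene of the list is left out and not reported here. Promoters came from RefSeq for 3 of 5 genes (not Plau and Plat). Alternatives were other scalings, filters and tools (DESeq2 1.42.0, limma 3.58.1 with counts, or with FPKM plus 1 or 0.1), counts divided by 4, the replicate number as a block, and leaving out each library.

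Over 9297 genes above 10 CPM, each library's deviation from its group mean was compared between groups. The correlations were 0.81, 0.21 and 0.67 for the libraries numbered 1, 2 and 3. Same-numbered libraries were therefore compared as pairs and used as a block in alternatives, but not in the main fit. The correlations of 2 unlike pairs were also above 0.1 (0.38 for control 3 and PS-MP 2, 0.14 for control 2 and PS-MP 3). PS-MP 2 thus correlated more with control 3 (0.38) than with control 2 (0.21), and the pairing of number 2 is uncertain.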

Additional observations from a re-analysis of the deposited data

How the results depend on the processing

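No member was called under any of the 20 alternatives to the PS-MP comparison, nor was any of the plasminogen-system list. Plat kept a positive log2 fold change in all 20, from 0.13 to 0.27 with 1 library left out and from 0.16 to 0.24 with the replicate block and 1 pair left out (lowest adjusted p = 0.579 in edgeR, without pair 3, and 0.186 in DESeq2 with the block). With the replicate block the log2 fold changes were 0.21 ± 0.05 (SE) for Plat, 0.08 ± 0.04 for Plau, -0.11 ± 0.05 for Plaur and 0.08 ± 0.06 for Serpine2, and the block changed no call among them. Serpinb2 was near 0 and turned positive with upper-quartile scaling (0.0030), limma-voom (0.0137), limma-trend with a pseudocount of 1 (0.0334) or 0.1 (0.0336), the replicate block in edgeR (0.0139) and DESeq2 (0.0092), and the block without pair 3 (0.1387); its range with 1 library left out was -0.10 to 0.16, and -0.05 to 0.14 with the block and 1 pair left out. With 1 library left out Plau ran from -0.0295 to 0.1936, Plaur from -0.34 to 0.10 and Serpine2 from -0.38 to 0.50. Over all genes DESeq2 called 1, the replicate block 1 in edgeR and 1 in DESeq2, leaving out 1 library 0 to 1, and the block without pair 1, 2 or 3 called 1, 15 and 9, none of them a member; fewer libraries entered those fits and the cause was not tested. Between replicate numbers, limma-trend with a pseudocount of 1 called 673 genes and no filter 743, and leaving out 1 library gave 731 to 1453. Serpine2 and Plaur stayed called between numbers in all 15 alternatives (highest adjusted p = 0.00737 and 0.0245), with spans from 1.33 to 1.64 and from 0.64 to 0.75. The adjusted p of Plau between numbers lay under 0.05 in all but 1 of them, without PS-MP 1 (0.052, edgeR). The lowest value of the 5 genes was 1786 estimated counts (Serpine2 in control 1).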
